A study of Mus musculus with 10 samples.

Results

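Neurotrophic factors and their receptors were followed across the injured mouse spinal cord: the ligand genes Bdnf, Ntf3, Gdnf and Cntf and the receptor genes Ngfr, Ntrk2, Ntrk3, Gfra1, Gfra2 and Ret. They were chosen by name, as the transcript clusters (sets of array probes that cover 1 gene locus) and exon-level probe sets whose annotation gives 1 of these symbols alone. Of the 10 genes, 8 had such a cluster, out of 14847 genes in all, and each of the 8 had 1 cluster. They also had 122 of the 209279 exon-level probe sets with a single symbol, a probe set being a few probes within 1 exon. Ntf3 was not analysed here. Cntf was found only on probes that list several genes and is described as a shared locus below.

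RNA came from segment T10 of the spinal cord of wild-type ICR mice, an outbred stock. The control group had a sham operation, and the 4 other groups had a spinal cord injury, with tissue taken 1 day, 3 days, 1 week or 3 weeks later. Each group of 3 mice, 15 in all, was mixed by equal mass into 1 pool. Each value therefore comes from a single array, and without replicates no test, p-value or standard error can be given. Every animal is labelled as 4 weeks old. If that is the age at surgery, age at collection and time after injury cannot be told apart. How the cord was injured, and how long after the sham operation the control mice were killed, was not given in the sources used here.

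Neurotrophins act through receptors of distinct kinds. BDNF binds the receptor tyrosine kinase TrkB, encoded by Ntrk2, and neurotrophin-3 binds TrkC, encoded by Ntrk3, both of which promote neuronal survival and growth. All neurotrophins, and with high affinity their unprocessed precursors, also bind p75NTR, a receptor of the tumour necrosis factor family encoded by Ngfr, which can signal for death or survival. GDNF-family ligands bind a membrane-anchored co-receptor, GFRα1 or GFRα2, which then engages the receptor tyrosine kinase RET. CNTF is a cytokine of glia that acts on neurons through CNTFRα with LIFRβ and gp130.

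Signals are log2 values as deposited, and a call of higher or lower means a difference of 2-fold or more (1 on the log2 scale). The filter level was 3.79 at the gene level, the 40th percentile of all values. All 8 measured members reached it on at least 1 array, as did 11272 genes in all, which form the background below. Beside a gene-level difference stands the median ± SD over the gene's exon-level probe sets that reached the exon-level filter (4.85). That SD describes how the probe sets of a gene vary within the same pair of samples, not how mice vary. The median difference of all tested genes from sham was -0.15 after 1 day, -0.12 after 3 days, -0.06 after 1 week and 0.00 after 3 weeks. Centring the arrays on their medians moved it by -0.16 after 3 weeks, and quantile normalization by 0.14, 0.10 and -0.11 after 1 day, 3 days and 3 weeks. Over all exon-level probe sets past their filter the median difference was -0.24, -0.25, -0.15 and -0.01 at the 4 times in order. All 8 measured neuron markers and all 7 measured oligodendrocyte markers passed the filter, and 11272 of 14847 genes in all did. All measured skeletal muscle, fibroblast and meningeal, and macrophage markers passed it too, so passing does not identify the tissue.

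Ngfr, the member with the largest rise, and Ntrk2, which was below sham up to 1 week, had 1 promoter window each in the RefSeq table of build GRCm38.p6, and both are shown for comparison. Each line gives the 250 bases before the annotated start, read 5′ to 3′ on the gene's strand, with every GC box in capitals (GGGCGG on either strand, written here as CCGCCC where it lies on the opposite strand).
Ngfr, chr11:95587699-95587948, minus strand: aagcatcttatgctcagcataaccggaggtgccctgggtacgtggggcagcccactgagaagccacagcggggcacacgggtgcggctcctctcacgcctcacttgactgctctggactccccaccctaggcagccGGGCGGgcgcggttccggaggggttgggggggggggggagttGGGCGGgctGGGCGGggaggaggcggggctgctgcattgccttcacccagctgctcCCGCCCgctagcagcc
Ntrk2, chr13:58806319-58806568, plus strand: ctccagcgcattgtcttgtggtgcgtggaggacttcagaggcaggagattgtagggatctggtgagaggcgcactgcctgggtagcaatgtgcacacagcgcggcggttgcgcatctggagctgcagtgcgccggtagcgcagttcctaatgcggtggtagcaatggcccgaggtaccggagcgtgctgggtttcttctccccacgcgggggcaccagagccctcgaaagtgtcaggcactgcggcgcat
The Ngfr window held 4 GC boxes, which began 114, 72, 63 and 16 bases before the start, and the Ntrk2 window held 0. A GC box, the motif bound by Sp-family factors, was present in 32.7% of the 32851 windows of this length in the table. The GC content was 70.4% for Ngfr and 62.8% for Ntrk2. Neither window held a CCAAT box (CCAAT, 33.8% of all windows), a TATA box (TATAAA, 12.4%), a cyclic AMP response element (TGACGTCA, 1.55%) or an AP-1 site (TGANTCA, 6.75%), searched on both strands, with overlaps between motifs allowed. These matches describe letters and were not set against the expression values by any test. Of the other members, Bdnf had 7 windows, Gdnf and Ntf3 2 each, and Gfra1 and Cntf 1 each. Ntrk3, Gfra2 and Ret had no entry.

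At the gene level every call among the 8 members fell on 1 of the 6 receptor genes. The measured ligand genes, Bdnf and Gdnf, had gene-level values that were tied or under the filter on most arrays. The calls therefore do not set receptors apart from ligands. At 1 day, 0 of 8 members were at least 2-fold higher (3.79% of all tested genes were) and 0 were at least 2-fold lower (4.09%). At 3 days, 1 of 8 was higher, Ngfr (5.94% of all genes), and 1 was lower, Ntrk3 (9.58%). At 1 week, 1 was higher, again Ngfr (11.3%), and 4 were lower, Ntrk2, Ntrk3, Gfra2 and Ret (13.9%). At 3 weeks, 1 was higher, Ngfr (8.49%), and 0 were lower (3.4%). The 4 differences share the same sham array, so they are not independent of each other. Between neighbouring times, from 1 day to 3 days 0 of 8 members were called higher (2.91% of all genes) and 0 lower (0.976%). From 3 days to 1 week 0 were higher (5.51%) and 1 was lower, Ret (3.2%). From 1 week to 3 weeks 2 were higher, Ntrk2 and Ntrk3 (7.05%), and 0 lower (3.48%). The median difference from sham over the 8 members was -0.09, -0.02, -0.68 and -0.01 at the 4 times in order. These medians include Bdnf and Gdnf, whose gene-level values are tied or under the filter. Over the 6 receptor genes alone the median was -0.32, -0.41, -1.11 and -0.11. Of the 104 member probe sets past the exon-level filter, 3 were at least 2-fold higher and 6 lower after 1 day (5.3% and 12.1% of all probe sets), 9 and 30 after 3 days (8.57% and 18.2%), 5 and 54 after 1 week (15.2% and 19.8%) and 6 and 0 after 3 weeks (11.7% and 6.0%). In whole tissue, fewer cells of a type and less RNA per cell cannot be told apart.

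**Figure D1:**
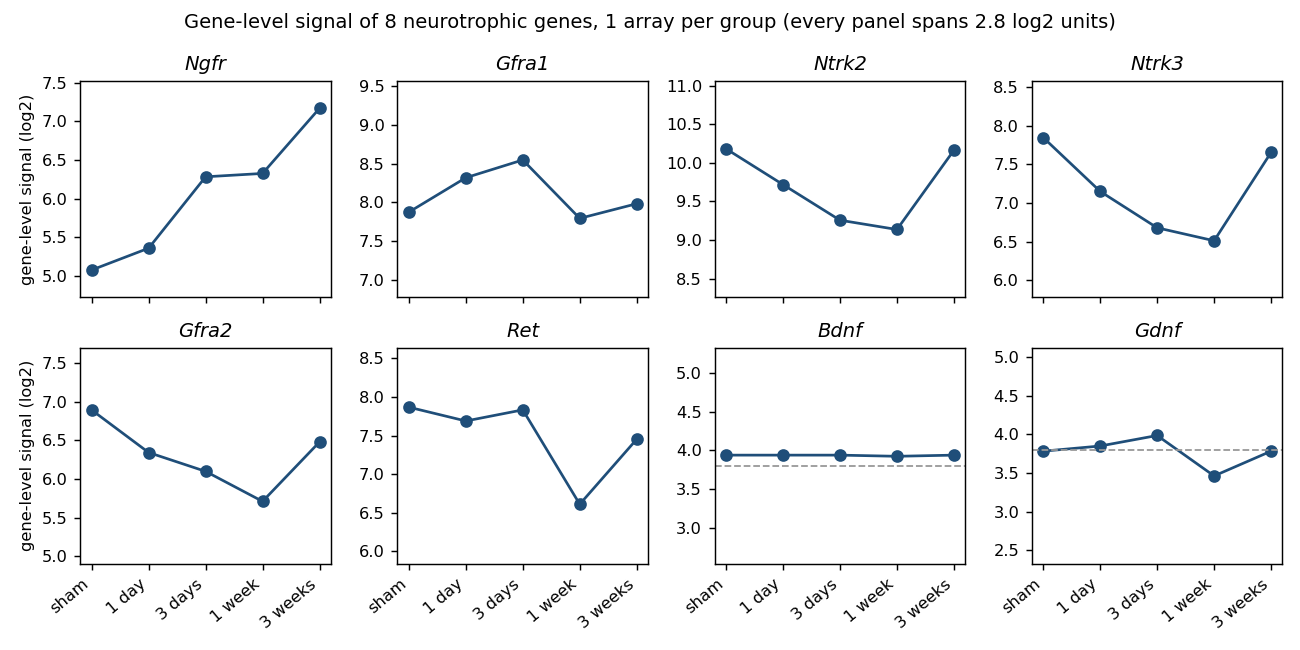
Gene-level log2 signal (vertical axis) of each measured member in the 5 groups (horizontal axis), 1 point per array and no error bar because each group is 1 pool; the dashed grey line in the lower right panels is the filter level of 3.79. Ngfr climbed from 5.08 in sham to 7.17 after 3 weeks, Ntrk2, Ntrk3, Gfra2 and Ret were lowest after 1 week, Gfra1 was highest after 3 days, and Bdnf is listed at the same value on 4 of the 5 arrays.

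Ngfr encodes p75NTR (gene ID 18053, transcript cluster 6791048, chromosome 11). Its signal was 5.08 in sham, 5.36 after 1 day, 6.28 after 3 days, 6.33 after 1 week and 7.17 after 3 weeks. All 4 injured arrays lay above sham, and the 3 weeks array was the highest of the 5. Against sham this was a difference of 0.28 after 1 day (probe sets 0.17 ± 0.62, n = 8), 1.21 after 3 days (1.35 ± 0.80) and 1.25 after 1 week (0.93 ± 1.16). At 3 weeks it was 2.09, or 4.27-fold (2.13 ± 0.92). The exon-level median after 1 week lay just under 2-fold, so the call at that time rests on the gene-level summary.

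The 8 Ngfr probe sets differed widely in size, and 5 of them had a sham signal under the exon-level filter. These 5 passed only through injured arrays, so their differences from sham are rough and the counts and medians over the 8 are a description. The 3 with a sham signal above the filter differed from sham by 0.74, 0.95 and 2.56 after 3 weeks, and by -0.32, 0.11 and 0.90 after 1 week. At 3 weeks all 8 were above sham, by 0.74 to 3.18, and 6 of them by at least 2-fold (11.7% of all probe sets past the filter were). At 3 days 6 of 8 were at least 2-fold higher (8.57% of all), after 1 week 3 of 8 (15.2%) and after 1 day 1 of 8 (5.3%). Probe set 4677151 read 4.64 in sham, 6.43 after 1 day, 7.28 after 3 days, 7.62 after 1 week and 7.73 after 3 weeks. It was the only 1 of the 8 past 2-fold after 1 day, with a difference of 1.78. Probe set 5168545 read 4.54 in sham and 7.73 after 3 weeks, with the largest difference of the 8, 3.18. Both had sham signals under the filter. Probe set 5538027 lay at the other end, at 6.09, 6.27, 6.10, 5.77 and 6.83 in the same order, and was below sham after 1 week.

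Markers of cell types known to carry p75NTR or to enter the lesion were set beside these values. The shares of all tested genes called at each time, given above, are the background for the counts of every marker list. Of the 9 listed Schwann cell markers 5 were measured, and 2 of them after 1 day and after 3 days, 1 after 1 week and 3 after 3 weeks were at least 2-fold higher. Their summed linear signal was 255 in sham, 314 after 1 day, 629 after 3 days, 291 after 1 week and 508 after 3 weeks. The median difference of the 5 was 0.00, -0.04 and 0.00 after 1 day, 3 days and 1 week, with 2 of 5 above sham each time, and 1.09 after 3 weeks, with 5 of 5 above. The sum after 3 days was carried by Gldn, which read 5.04 in sham and 8.67 then. None of the 5 fell below the filter level on any array. Fibroblast and meningeal markers had 6 of 8 higher after 3 days, 7 of 8 after 1 week and 8 of 8 after 3 weeks, and their summed linear signal went from 619 in sham to 9918 after 1 week and 8597 after 3 weeks. Among them Postn was below the filter level on at least 1 array. The part of these cell types in the Ngfr signal was not tested.

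Ntrk2 encodes TrkB, whose truncated forms are abundant in astrocytes and whose full-length form is found in neurons (gene ID 18212, cluster 6807480, chromosome 13). Its signal was 10.18 in sham, 9.72 after 1 day, 9.26 after 3 days, 9.14 after 1 week and 10.16 after 3 weeks. It was lower on the arrays from 1 day to 1 week and level with sham after 3 weeks. The differences were -0.46 after 1 day (probe sets -0.47 ± 0.17, n = 16), -0.92 after 3 days (-0.93 ± 0.41), -1.04 after 1 week (-1.06 ± 0.25) and -0.02 after 3 weeks (0.00 ± 0.14). The fall after 1 week was 2.06-fold, just past the threshold. From 1 week to 3 weeks the signal went up by 1.03.

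The Ntrk2 probe sets ran closely together. All 16 were below sham after 1 day, after 3 days and after 1 week, and 8 of 16 were at least 2-fold lower after 1 week (19.8% of all probe sets were). The median over all probe sets past the filter was itself below sham then, at -0.24, -0.25 and -0.15. All 16 were higher after 3 weeks than after 1 week, by 0.75 to 1.47. A pair of probe sets stood apart in size, not in direction. Probe set 4882166 read 7.07 in sham, 6.31 after 1 day, 4.68 after 3 days, 5.60 after 1 week and 7.07 after 3 weeks, so its lowest point came after 3 days, 2.39 below sham and under the exon-level filter. Probe set 5009179 read 8.29, 7.63, 7.14, 6.47 and 7.86, with the largest difference of the 16 after 1 week (-1.82), and after 3 weeks it was still 0.43 under sham, the farthest of the 16. The annotation used here does not say which exon or isoform a probe set lies in, so the full-length and truncated forms were not told apart.

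Ntrk3 encodes TrkC (gene ID 18213, cluster 6968643, chromosome 7). Its signal was 7.85 in sham, 7.15 after 1 day, 6.68 after 3 days, 6.51 after 1 week and 7.65 after 3 weeks. It followed the same course as Ntrk2, with somewhat larger differences of -0.70 after 1 day (probe sets -0.75 ± 0.38, n = 19), -1.17 after 3 days (-1.28 ± 0.54) and -1.34 after 1 week (-1.55 ± 0.68). At 3 weeks it was at -0.19 (-0.12 ± 0.24). After quantile normalization the difference after 3 days was -0.94, which is under 2-fold. At 1 week 17 of 19 probe sets were at least 2-fold lower (19.8% of all probe sets were), and after 3 days 15 of 19 (18.2%). Probe set 5171811 did not follow the others: 4.57 in sham, 4.81 after 1 day, 4.88 after 3 days, 5.52 after 1 week and 4.75 after 3 weeks. It reached the exon-level filter on 2 arrays only, after 3 days and 1 week, so its small differences elsewhere say little. From 1 week to 3 weeks the gene-level signal went up by 1.14.

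Neuronal and glial markers give the setting of these falls. At 1 week 8 of 8 measured neuron markers were at least 2-fold lower, with a median difference of -2.30, and their summed linear signal was 14607 in sham, 4031 after 1 week and 9173 after 3 weeks. Oligodendrocyte markers had 5 of 7 lower after 1 week (median -1.36), and astrocyte markers 1 of 7 (median -0.53). The astrocyte markers were split then, from -2.85 for Slc7a10 to 0.60 for Gfap, with 2 of 7 above sham. At least 2-fold lower after 1 day were 1 neuron, 1 oligodendrocyte and 2 astrocyte markers. These counts were 3, 1 and 3 after 3 days. After 1 day the medians were -0.40 for neuron, -0.12 for oligodendrocyte and -0.45 for astrocyte markers, beside -0.46 for Ntrk2 and -0.70 for Ntrk3. In the same order they were -0.81, -0.50 and -0.91 after 3 days, beside -0.92 and -1.17. At 3 weeks the medians were -0.89 for neuron, -0.66 for oligodendrocyte and 0.45 for astrocyte markers, beside -0.02 for Ntrk2 and -0.19 for Ntrk3. No marker of these 3 lists fell below the filter level on any array. The part of cell composition in the Trk signals was not tested.

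Ret, the signalling receptor of GDNF-family ligands (gene ID 19713, cluster 6956867, chromosome 6), changed later than the Trk receptors. Its signal was 7.87 in sham, 7.69 after 1 day, 7.83 after 3 days, 6.61 after 1 week and 7.45 after 3 weeks. The arrays after 1 day and 3 days lay close to sham, at -0.18 (probe sets -0.14 ± 0.29, n = 24) and -0.03 (0.00 ± 0.32). At 1 week the difference was -1.26, or 2.39-fold lower (-1.23 ± 0.41), and after 3 weeks -0.42 (-0.50 ± 0.25). All 24 probe sets were below sham after 1 week, 18 of them by at least 2-fold (19.8% of all probe sets). Over the step from 3 days to 1 week Ret fell by 1.22, and 22 of 24 probe sets were at least 2-fold lower over that step (5.69% of all probe sets). Probe set 4822039 had the largest difference from sham after 1 week, -2.06. Probe set 4450502 showed almost none of this, at 6.26, 6.63, 6.50, 6.19 and 6.12 from sham to 3 weeks.

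RET is known as a receptor of motor neurons and of sensory fibres that enter the cord. The 4 of 6 motor neuron markers that passed the filter, Chat, Slc18a3, Slc5a7 and Chodl, were all at least 2-fold lower after 1 week, and their summed linear signal was 442 in sham, 197 after 1 day, 133 after 3 days, 68.4 after 1 week and 171 after 3 weeks. When Ret was close to sham, 2 of the 4 were at least 2-fold lower after 1 day and 3 after 3 days. Slc18a3 was the exception after 3 days, at -0.73, -0.67 and -2.75 after 1 day, 3 days and 1 week. Of the 4, Chodl alone was below the filter level on an array, after 3 days, and the listed Isl1 and Mnx1 were below it on all 5. The part of motor neurons in the Ret signal was not tested.

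**Figure D2:**
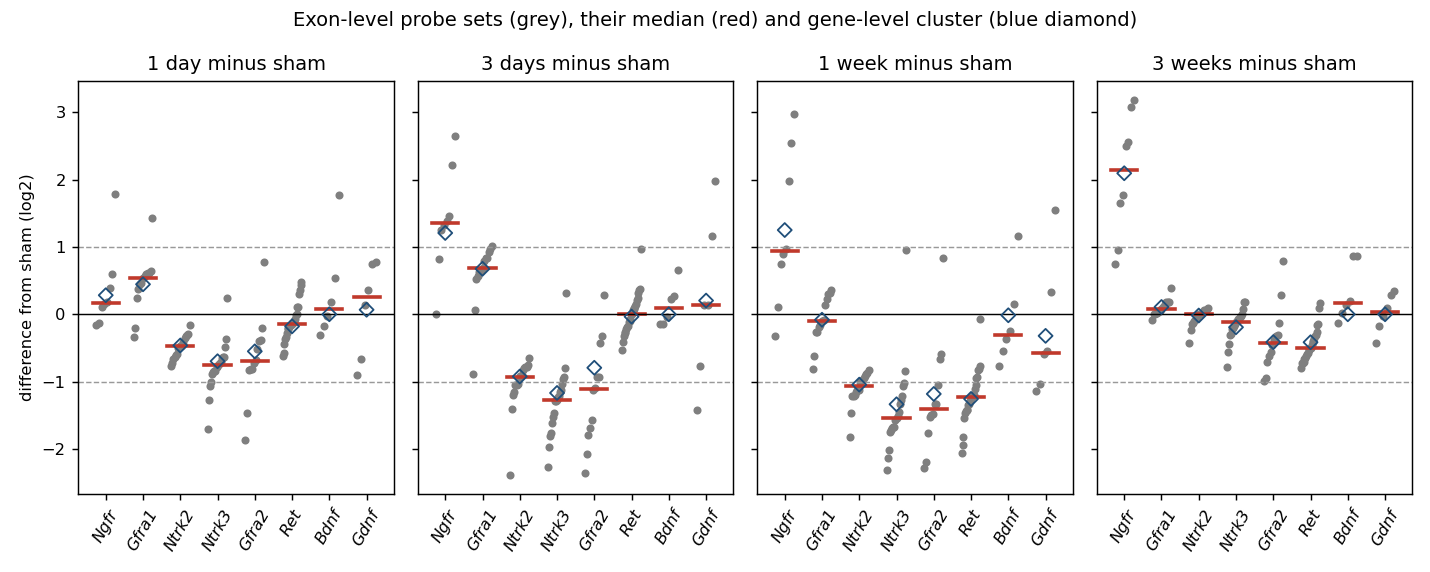
Log2 difference from sham (vertical axis) of every exon-level probe set past the filter (grey points, n = 8 to 24 for the 6 receptor genes and 6 each for Bdnf and Gdnf), their median (red bar) and the gene-level cluster (blue diamond) of each member, in 1 panel per time; dashed lines mark 2-fold. All Ntrk2 and Ret probe sets lie below 0 after 1 week, all Ngfr probe sets lie above 0 after 3 weeks, and in Bdnf and Gdnf single probe sets stand far above the rest.

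The GDNF co-receptors moved in opposite directions early after injury. Gfra1, the preferred co-receptor of GDNF (gene ID 14585, cluster 6874057, chromosome 19), read 7.87 in sham, 8.32 after 1 day, 8.55 after 3 days, 7.79 after 1 week and 7.98 after 3 weeks. It was highest after 3 days and back near sham from 1 week on. The difference was 0.45 after 1 day (probe sets 0.54 ± 0.43, n = 13) and 0.68 after 3 days (0.69 ± 0.51), which is 1.60-fold and under the threshold. At 1 week it was -0.08 (-0.10 ± 0.36) and after 3 weeks 0.11 (0.07 ± 0.12). At 3 days 12 of 13 probe sets were above sham. Probe set 5532551 was the exception, at 4.92 in sham and 4.03, under the filter, after 3 days. Probe set 4498101 had the largest early difference, 1.43 after 1 day. Of the 6 measured skeletal muscle markers, all were at least 2-fold higher after 1 day and after 3 days, with a summed linear signal of 137 in sham, 2219 after 1 day, 1287 after 3 days, 297 after 1 week and 193 after 3 weeks. Among these markers Myl1 was below the filter level on at least 1 array. Their part in the Gfra1 signal was not tested.

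Gfra2, the preferred co-receptor of neurturin (gene ID 14586, cluster 6820113, chromosome 14), read 6.89 in sham, 6.34 after 1 day, 6.10 after 3 days, 5.71 after 1 week and 6.48 after 3 weeks. All injured arrays lay below sham. The difference was -0.55 after 1 day (probe sets -0.70 ± 0.65, n = 12), -0.79 after 3 days (-1.11 ± 0.77), -1.18 after 1 week (-1.41 ± 0.83) and -0.41 after 3 weeks (-0.42 ± 0.50). At 3 days the exon-level median was past 2-fold while the gene-level value was not. At 1 week 9 of 12 probe sets were at least 2-fold lower (19.8% of all probe sets were). Probe set 4729613 was above sham on every injured array, by 0.77, 0.28, 0.84 and 0.78 from 1 day to 3 weeks. At 3 weeks Gfra2 and Ret stood at nearly the same distance under sham, -0.41 and -0.42, while Gfra1 was at 0.11.

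The gene-level values of the ligands carried little information. Bdnf (gene ID 12064, cluster 6879925, chromosome 2) read 3.94 in sham, after 1 day, after 3 days and after 3 weeks, identical to the 6 decimals deposited, and 3.92 after 1 week. Such ties are a property of the table: 610 of the 11272 tested genes (5.41%) have the same value on at least 4 of the 5 arrays. On at least 2 arrays 3881 of them (34.4%) do. A tied gene-level value therefore does not show that a transcript was steady. Gdnf (gene ID 14573, cluster 6828547, chromosome 15) read 3.78 in sham, 3.85 after 1 day, 3.99 after 3 days, 3.46 after 1 week and 3.78 after 3 weeks, with sham and 3 weeks identical. Its sham, 1 week and 3 weeks values lay under the filter level, where signals say little about the true level.

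Among the Bdnf probe sets, 6 of 17 passed the exon-level filter, and they did not move together. Their medians were 0.08 ± 0.76 after 1 day, 0.09 ± 0.31 after 3 days, -0.31 ± 0.69 after 1 week and 0.17 ± 0.43 after 3 weeks. Bdnf has several promoters, each with its own 5′ exon spliced to a shared coding exon, so its probe sets can report different transcripts. Probe set 4680085 read 5.36 in sham, 7.13 after 1 day, 6.02 after 3 days, 5.11 after 1 week and 5.23 after 3 weeks. It was the only 1 of the 6 past 2-fold after 1 day, 1.77 above sham, and was back at the sham level by 1 week. Probe set 4657891 read 4.02, 3.99, 4.24, 5.18 and 4.88 in the same order and was the only 1 past 2-fold after 1 week, at 1.16, with a sham signal under the exon-level filter. The brightest probe set, 4332246, read 8.19, 8.37, 8.45, 7.82 and 8.20 and stayed within 0.37 of sham. Which exon each lies in is not given in the annotation used here.

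Gdnf had 6 of 10 probe sets past the exon-level filter, and these also split. Probe set 4841529 read 3.97 in sham, 4.74 after 1 day, 5.94 after 3 days, 5.52 after 1 week and 4.07 after 3 weeks, 1.97 above sham after 3 days. Probe set 5060395 had its highest value after 3 days too, 1.17 above sham, from a sham signal of 3.76. Both had sham signals below the exon-level filter. Probe set 4378212 went the other way, from 7.67 in sham to 6.25 after 3 days and 7.65 after 3 weeks. The median over the 6 was 0.14 ± 1.24 after 3 days and -0.57 ± 1.02 after 1 week, so the probe sets gave no single direction for Gdnf. At 3 weeks all 6 lay within 0.43 of sham.

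Cntf had no probe of its own in the annotation. The gene-level cluster 6871645 lists Gm44505, Zfp91 and Cntf together and has the same value, 7.37, on all 5 arrays, as do 687 of the 23332 clusters. At the exon level 15 probe sets list Zfp91, the read-through transcript Zfp91-cntf and Cntf, and they fell into 2 sets that match the order in which the symbols are listed. All 4 probe sets with Cntf at the head of the list had sham signals under the exon-level filter, from 2.45 to 4.75, so they passed only through injured arrays and the sizes that follow are rough. On the injured arrays 3 of the 4 were above the filter at every time, and probe set 5605920 only after 3 weeks, at 6.27. The 4 were all above sham at every time, with a median of 1.24 ± 0.14 after 1 day, 1.71 ± 0.56 after 3 days, 2.31 ± 0.56 after 1 week and 3.17 ± 0.45 after 3 weeks. The 11 with Zfp91 at the head had medians of -0.11 ± 0.25, -0.14 ± 0.18, -0.17 ± 0.24 and -0.15 ± 0.09, and 0 of them reached 2-fold. What the listing order stands for is not given in the annotation used here, so the rising signal belongs to the shared locus and was not assigned to a single gene.

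**Figure D3:**
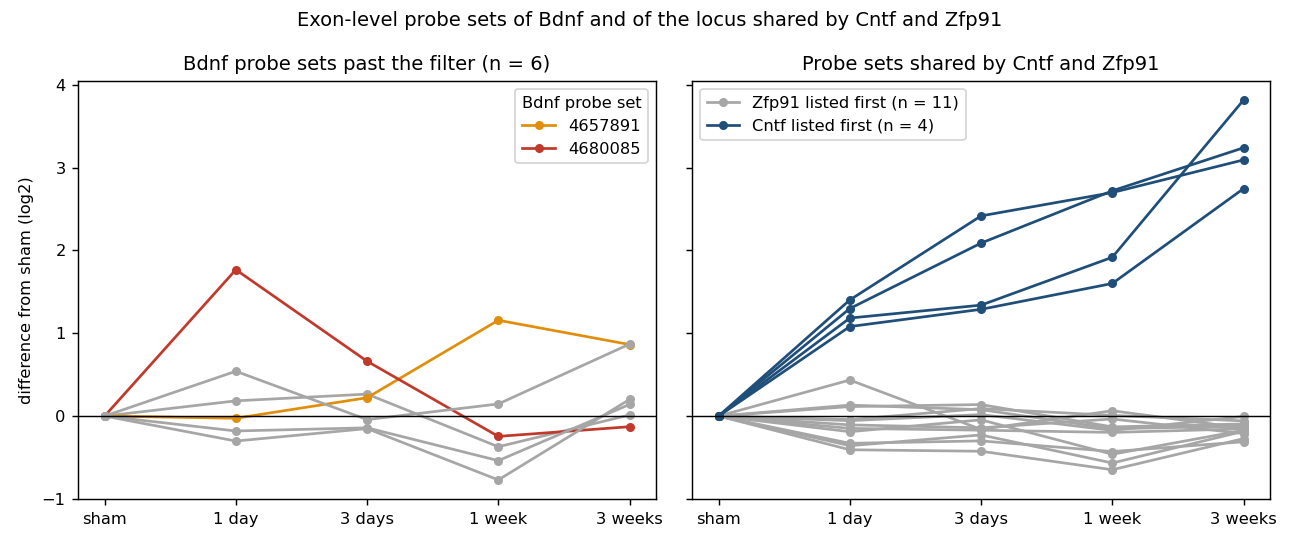
Log2 difference from sham (vertical axis) across the 5 groups (horizontal axis) for the 6 Bdnf probe sets past the filter (left) and the 15 probe sets shared by Cntf and Zfp91 (right), 1 line per probe set. On the left, probe set 4680085 peaks after 1 day (1.77) and 4657891 after 1 week (1.16); on the right, the 4 probe sets with Cntf at the head of the list climb to between 2.75 and 3.82 after 3 weeks while the other 11 stay within 0.65 of sham.

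Patterns were compared by the root mean square distance between the 4 log2 differences from sham, a description over 4 differences that share 1 sham array. Bdnf and Gdnf were left out, since their gene-level values are tied or under the filter. Among the receptors the closest pairs were Ntrk2 with Gfra2 (0.22), Ntrk2 with Ntrk3 (0.24) and Ntrk3 with Gfra2 (0.24). Ngfr lay at least 1.23 from every other receptor. Among all tested genes, those nearest to Ntrk2 were Vdac3 (0.06), Shc2 (0.10) and Armcx6 (0.11). Those nearest to Ntrk3 were Grpr (0.06), Cntn1 (0.07) and Ssbp2 (0.10), and those nearest to Gfra2 were Patj (0.02), Btrc (0.03) and Mosmo (0.06). The nearest to Ret were Fgf22 (0.10), Hdgfl3 (0.13) and Psmc5 (0.18). Ngfr had the most distant neighbours, Fbln5 (0.22), Vamp5 (0.26) and Slc7a11 (0.26). Within a distance of 0.25 lay 702 genes for Gfra2, 193 for Ntrk2, 162 for Ntrk3, 63 for Ret and 1 for Ngfr.

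Of 12 listed partners of Trk and p75NTR receptors 10 were measured, and 1 was lower after 1 day, 1 higher and 1 lower after 3 days, 2 higher and 2 lower after 1 week, and 1 higher after 3 weeks. Over all genes the shares after 1 week were 11.3% higher and 13.9% lower, so the counts of the list are close to the background. For the counts of this list and those that follow at other times, the shares of all genes higher and lower were 3.79% and 4.09% after 1 day. They were 5.94% and 9.58% after 3 days and 8.49% and 3.4% after 3 weeks. The lists that follow are as small, so 1 gene is a large part of a count. Lingo1, which forms a receptor complex with p75NTR and the Nogo receptor on neurons, read 7.50 in sham, 6.55 after 1 day, 6.25 after 3 days, 5.26 after 1 week and 6.58 after 3 weeks. Its difference after 1 week was -2.23 (probe sets -2.51 ± 1.42, n = 5). Ngfr was then 1.25 above sham at the gene level, but its probe sets stood at 0.93 ± 1.16, with a median under 2-fold. The adaptor genes Shc1 and Shc3 diverged. Shc1, the form expressed in most tissues, was at 2.48 after 1 week (2.30 ± 0.75, n = 15), and Shc3, the neuronal form, at -1.75 (-1.84 ± 0.39, n = 13). Tnfrsf19, another Nogo receptor partner, was at -1.21 after 1 day, and Nradd, a relative of p75NTR, at 1.02 after 1 week. The Nradd values after 1 day, 3 days and 3 weeks were identical, and its probe sets were at 1.82 ± 1.46 after 1 week (n = 9). The median over the 10 was -0.42 after 1 week, beside -0.06 for all tested genes.

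Among the other neurotrophin genes, 3 of 7 passed the filter, all of the sortilin family of sorting receptors, to which the proneurotrophin receptor sortilin belongs. Of the 3, 0 were higher and 1 was lower after 3 days and 2 after 1 week, with a median of -1.17 after 1 week. Sorcs3 was at -1.56 after 1 week (probe sets -1.82 ± 1.06, n = 24) and Sorcs1 at -1.17 (-1.16 ± 0.44, n = 28). Sort1, the gene of sortilin itself, had no gene-level cluster with a single symbol and is not in these counts. It was named after its values were seen. Its probe sets were at -0.91 ± 0.26 after 1 day (n = 56), with a median just past 2-fold lower after 3 days. They were at -0.35 ± 0.22 after 1 week and -0.38 ± 0.15 after 3 weeks, so the 1 week falls do not extend to Sort1. Ntf5 lay under the filter level on all 5 arrays. Of the proteases that process proneurotrophins and their inhibitors, 4 of 8 passed the filter, with 1 higher and 1 lower after 3 days and after 1 week, and 2 higher after 3 weeks. Furin, which cleaves proneurotrophins inside the cell, was above sham at all 4 times, by 0.89, 1.42, 1.88 and 1.16 (probe sets 2.10 ± 0.63 after 1 week, n = 18). Pcsk5 was at 1.56 after 3 weeks. Its sham and 1 week values were identical, and its probe sets were at 0.18 ± 0.86 after 1 week (n = 18). Serpini1, the neuronal inhibitor of tissue plasminogen activator, was at -1.99 after 1 week (-1.88 ± 0.87, n = 14).

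Of the other genes of the GDNF family, 5 of 9 listed passed the filter and at the gene level 0 were at least 2-fold from sham at any time. Their medians were -0.07, -0.06, -0.21 and -0.06 at the 4 times. Gfra4, named here after its values were seen, was past 2-fold at the exon level, with a gene-level difference of -0.84 after 1 week and probe sets at -1.85 ± 0.87 (n = 5). Other listed genes, not all named here, were also past 2-fold at the exon level only. Among them were Lif (1.95 ± 0.42, n = 2) and Fgf2 (1.16 ± 0.35, n = 3) after 1 day. The CNTF receptor complex and its other ligands, 5 of 7 past the filter, were split, with 1 higher after 1 day, 1 higher and 1 lower after 3 days, 1 lower after 1 week and 1 higher after 3 weeks. Cntfr, the ligand-binding subunit, read 9.04 in sham, 8.12 after 1 day, 7.71 after 3 days, 7.35 after 1 week and 8.27 after 3 weeks, a difference of -1.69 after 1 week (probe sets -1.61 ± 0.75, n = 11). Il6st, which encodes gp130, read 8.68, 8.85, 8.66, 9.11 and 9.72 and was 1.04 above sham after 3 weeks (1.05 ± 0.28, n = 18). Clcf1, another ligand of the same receptor, was at 2.05 after 1 day and 1.76 after 3 days, with widely spread probe sets (2.15 ± 1.87 after 1 day, n = 4). At 3 weeks Cntfr was 0.77 under sham. The 4 rising probe sets of the shared Cntf locus were highest then. Their sham signals lay under the exon-level filter and they were not assigned to a single gene, so no contrast with Cntfr is drawn.

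Of 11 other trophic factors 9 passed the filter, and 1 was lower after 1 day, 1 higher and 4 lower after 3 days, 2 higher and 3 lower after 1 week and 2 higher and 2 lower after 3 weeks. Fgf9 read 8.27 in sham, 6.99 after 1 day, 5.81 after 3 days, 4.51 after 1 week and 6.77 after 3 weeks, -3.76 after 1 week. Nrg1, a ligand of ErbB receptors on glia, was at -2.18 and Fgf1 at -2.13 after 1 week. Igf1, which macrophages are known to make, read 4.96, 4.69, 5.70, 7.80 and 7.93 and was 2.98 above sham after 3 weeks (probe sets 3.55 ± 1.69, n = 9). Hgf was at 3.10 after 1 week (3.40 ± 0.91, n = 19), but its sham signal of 2.88 lay under the filter level, so the size of its rise is rough. Macrophage markers, all 6 of them at least 2-fold higher after 1 week, had a summed linear signal of 105 in sham, 1364 after 1 day, 4596 after 3 days, 9854 after 1 week and 3672 after 3 weeks. All 6 were already at least 2-fold higher after 1 day and 3 days, when Igf1 was at -0.27 and 0.75. Their part in these values was not tested, and Msr1, Gpnmb and Cd36 among them were below the filter level on at least 1 array.

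**Figure D4:**
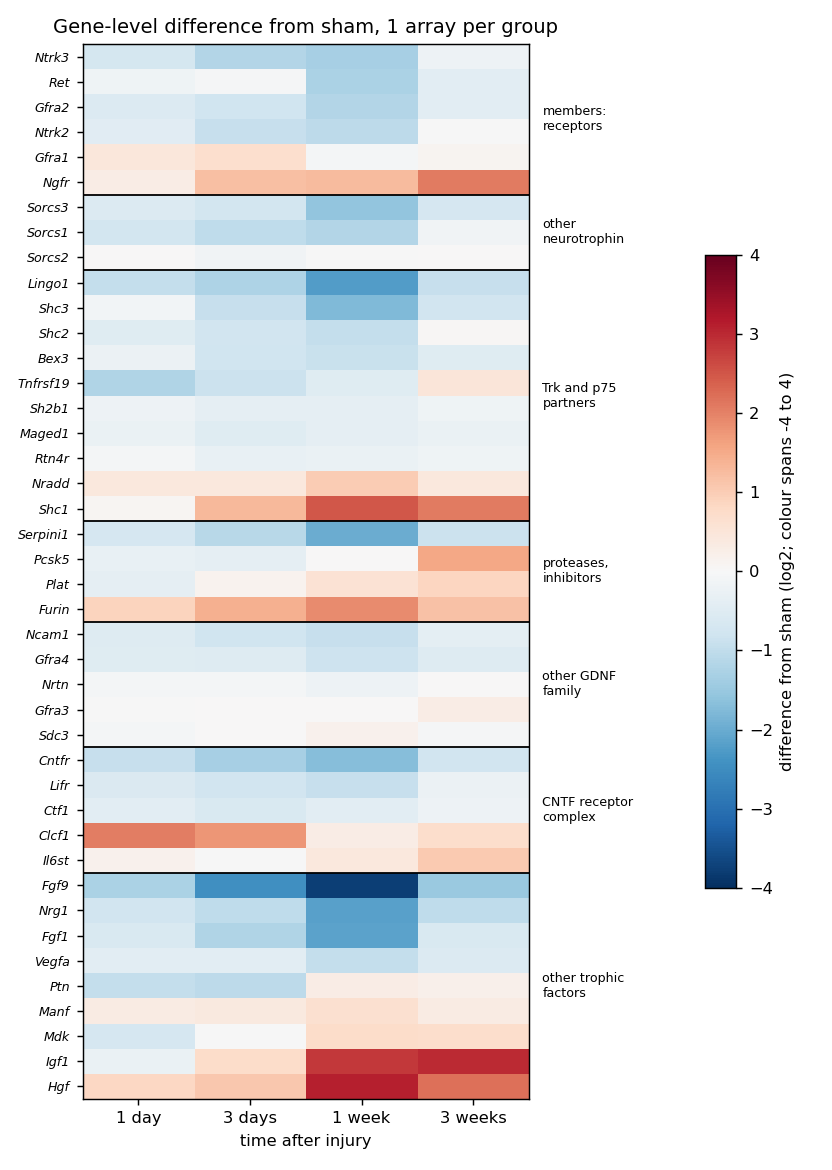
Gene-level log2 difference from sham at each time (columns) for the receptor members and the related genes that passed the filter (rows, grouped by list and sorted by the 1 week value); red is higher and blue lower than sham, 1 array per group. Blue is deepest after 1 week in Fgf9 (-3.76) and Lingo1 (-2.23), and red is deepest in Hgf after 1 week (3.10) and in Igf1 after 3 weeks (2.98).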

How the data were processed

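RNA pools of 5 groups were measured at the gene level and at the exon level, which gives 10 samples. Per the labels' protocols, total RNA was converted to biotin-labelled single-stranded DNA with Affymetrix whole-transcript kits. The deposited values are log2 signals, for 23332 transcript clusters and 229581 probe sets. The base is not stated. Base 2 was used because the highest gene-level value would be an intensity of 7752 with it and of 408575 with the natural logarithm. GCOS and build mm8 are named in the submitters' processing notes. How the authors corrected background, normalized the arrays and summarised probes was not given in the sources used here. Medians per array ranged from 4.52 to 4.76 at the gene level. Depth does not apply to arrays, and their number, 1 per group, limits the precision.

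Symbols came from the platform annotation (14996 clusters with 1 symbol, 1019 with several, 7317 with none), updated through a RefSeq table of GRCm38.p6. Where several clusters carried 1 symbol, the brightest over the 5 arrays was used. Differences were computed on the values as deposited with pandas 2.3.3 and numpy 2.4.6 in Python 3.11.15, and the steps were tested on simulated data. Both levels carry the same group labels and were never counted as replicates. The members and gene lists were chosen with earlier results of these data known. Named genes were all members, the up to 3 largest rises and falls past 2-fold in each related list, and the 3 genes nearest in pattern to each member past 2-fold. Gfra4, Sort1, Lif and Fgf2, past 2-fold at the exon level only, were named after their values were seen. Alternatives were other scalings, filters, summaries and folds.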

Additional observations from a re-analysis of the deposited data

Results flagged for a closer look

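The probe sets that list Cntf together with Zfp91-cntf and Zfp91, with Cntf at the head, lie outside the single-symbol measurement and were above the sham control at every time. The median difference of these 4 probe sets was 1.24 after 1 day, 1.71 after 3 days, 2.31 after 1 week and 3.17 after 3 weeks. All 4 sham signals lay under the exon-level filter of 4.85, from 2.45 to 4.75, so these sizes are rough, and probe set 5605920 stayed under it until 3 weeks. The gene-level cluster that covers the locus has the same value on all 5 arrays and shows none of this.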

How the results depend on the processing

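No paired analysis was possible because each group is 1 pool on 1 array per level, and for the same reason no array could be left out. The 8 member calls kept their direction under all 6 alternatives of scaling, floor, cluster and level. The floor and cluster alternatives could not change a call, because each called gene has 1 cluster and lay above the filter level on every array. For Ntrk2, Ngfr, Gfra2 and Ret every probe set passed the exon-level filter, so both exon-level alternatives are the same there. The exceptions in size were Ngfr after 1 week, 0.93 at the exon level with or without the filter, and Ntrk3 after 3 days, -0.94 after quantile normalization. Members at least 2-fold higher after 1 week then numbered 0 (1 as reported) at the exon level with or without the filter. Members lower after 3 days numbered 0 (1 as reported) after quantile normalization and 2 at the exon level with or without the filter. With 1.5-fold in place of 2-fold, members higher after 3 days numbered 2, and members lower 1 after 1 day and 3 after 3 days. Over all genes, with 1.5-fold, 776, 1137, 1938 and 1621 were higher and 1873, 2453, 2615 and 1323 lower at the 4 times, against 427, 669, 1272 and 957 higher and 461, 1080, 1571 and 383 lower with 2-fold. At the exon level past the filter, over 14378 genes, 674 and 1115 were higher and 797 and 1696 lower after 1 day and 3 days. Quantile normalization left 240 lower after 1 day, and centring on the medians gave 669 lower after 3 weeks. Higher genes made up 48.1%, 38.3% and 71.4% of the calls after 1 day, 3 days and 3 weeks as deposited. After quantile normalization these were 67.9%, 50.6% and 64.9%, and after centring 57.5%, 40.2% and 54.4%. The cause of these differences was not tested. Sham signals under the exon-level filter limit the sizes given for probe sets of Ngfr (5 of 8), Bdnf, Gdnf and the shared Cntf locus.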

Other observations

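Genes known to be switched on by Trk and Ret signalling were also listed, and 10 of 11 passed the filter. At least 2-fold from sham were 1 higher after 1 day, 1 higher after 3 days, 2 higher and 1 lower after 1 week, and 1 higher after 3 weeks, with medians of 0.41, 0.04, -0.14 and 0.09. Fos, an immediate early gene that many stimuli induce, read 4.97 in sham, 7.14 after 1 day, 6.76 after 3 days, 6.66 after 1 week and 6.08 after 3 weeks. Its probe sets were at 2.14 ± 0.38 after 1 day (n = 5). Arc, a neuronal activity gene, was at -1.74 after 1 week (probe sets -1.30 ± 1.04, n = 5). Dusp6, a phosphatase induced by MAP kinase signalling, was at 1.31 after 1 week (1.17 ± 0.67, n = 6), and its 1 day, 3 days and 3 weeks values were identical at 7.19.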
